A study of Xenopus laevis with 2 samples.

Results

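Aminoacyl-tRNA synthetases are the enzymes that join each amino acid to its tRNA, the step that supplies the ribosome with charged tRNA. Cytosolic translation and mitochondrial translation use largely separate sets of these enzymes, both coded in the nucleus, while glycyl- and lysyl-tRNA synthetase (gars and kars) serve both compartments from a single gene. In vertebrates, several cytosolic synthetases are held together with scaffold proteins in the multisynthetase complex, and the others act outside it. Axons translate mRNAs far from the cell body, so their ribosomes and their mitochondria both draw on charged tRNA within the axon.

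The mRNAs were measured in 2 replicate RNA-seq libraries of Xenopus laevis retinal ganglion cell (RGC) axons, the only condition. Whole eyes of stage 33/34 to 37/38 embryos, 500 for each library, were cultured for 48 hours on a filter with 1 µm pores, which lets axons through and holds cell bodies back, and the labels name no treatment. RNA of the axons was reverse-transcribed and amplified with a PCR-based single-cell protocol. Members were all gene names whose symbol is that of an aminoacyl-tRNA synthetase, or of sepsecs, which is not itself a synthetase but completes selenocysteinyl-tRNA from a serine first loaded by seryl-tRNA synthetase. This gave 49 of the 49349 gene names, 34 of them cytosolic and 15 mitochondrial (symbol ending in 2). The counts and levels given for the synthetases are those of the 34 cytosolic names, which stand for 21 symbols. The mitochondrial enzymes are described only in part, and no share or sum is given for them. The endings .L and .S name the homeologs, the gene copies on the L and S subgenomes of this allotetraploid frog. Of the cytosolic symbols, 13 are listed under 2 names and 8 under 1.

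The values are FPKM, fragment numbers corrected for the length of the transcript and for library size. Levels of different genes are set side by side per length. This holds only as far as the amplified cDNA covers each transcript evenly, which was not tested. Total depth is unknown. From the steps of low values, replicate 1 was estimated to be 3.71 times as deep as replicate 2. A value above 0 was listed for 3148 gene names in replicate 1 and for 2873 in replicate 2. Of 13 RGC and axon markers, gap43 and stmn2 were over 1 FPKM in both libraries and 11 were listed at 0, tubb3 and nefl among them. Of 30 markers of other cells, of which 29 are listed, 20 were listed at 0 in both libraries. Over 1 FPKM in both were 5 of them (glul, rlbp1, dct, col1a1 and pcna). Of all gene names, 4.39% were over 1 FPKM in both. A marker counted where any of its names passed, so marker counts are not like for like with that share of single names. Summed over the whole list, the RGC and axon markers had 546 and 841 FPKM in replicates 1 and 2. Markers of other cells had 290 and 234 FPKM in the same order, of which pcna.L alone had 150 and 74.3 FPKM. The study checked the purity of the axon material by RT-PCR and immunostaining. The part of other cells in the synthetase values was not tested. Cufflinks can also give 0 where an estimate fails. Whether this was so for any gene at 0 was not tested, so such genes are described only as listed at 0.

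With FPKM over 1 in both libraries, the limit that the study used, 2 of the 34 names were detected (5.88%), beside 4.39% of all gene names. These were sars.L (seryl-tRNA synthetase) and qars.S (glutaminyl-tRNA synthetase). In either library alone 3 names passed (8.82%), beside 4.71% of all gene names in replicate 1 and 4.93% in replicate 2. A further 4 names had a value above 0 without passing the limit in both libraries, namely nars.L, kars.L, dars.L and nars.S. The other 28 names (82.4%) were listed at 0 in both libraries, as were 93.2% of all gene names. With 2 names detected, the share of the cytosolic synthetases stood near that of all gene names. Their levels summed to 230 and 112 FPKM in replicates 1 and 2, or 0.0371% of all FPKM summed over replicate 1 and 0.0154% of replicate 2.

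Seryl-tRNA synthetase had the highest level of the cytosolic members. The name sars.L lies on chromosome 2L (X. laevis v9.2), from position 62648913 to 62665146, and no other listed row overlaps it. It had 167 and 80.5 FPKM in replicates 1 and 2. These values place it above 86.6% of the names with a value above 0 in replicate 1 and above 74.9% of those in replicate 2.

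The S homeolog of this gene is not listed under its symbol and so falls outside the symbol rule. A gene table of the assembly Xenopus_laevis_v10.1 gives sars1.S as the symbol of the numbered gene model LOC108709488, which the files place on chromosome 2S from 59891364 to 59907215. LOC108709488 had 314 and 277 FPKM in replicates 1 and 2, more than any of the 34 cytosolic names. It was 1.88 times the level of sars.L in replicate 1 and 3.44 times in replicate 2, and its values did not overlap those of sars.L. The replicates of LOC108709488 differed by a factor of 1.13, and those of sars.L by a factor of 2.08. Together, both seryl-tRNA synthetase homeologs reached 482 and 357 FPKM in replicates 1 and 2. Reads that fit both homeologs can be given to either, so the split between them is uncertain.

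Glutaminyl-tRNA synthetase was the one enzyme of the multisynthetase complex over the limit in both libraries. The name qars.S, on chromosome 4S from 109729383 to 109811850, had 61.0 and 28.2 FPKM in replicates 1 and 2, while its homeolog qars.L was listed at 0 in both. Its level was below that of sars.L in both libraries, by a factor of 2.75 in replicate 1 and 2.85 in replicate 2, and the values of the 2 genes did not overlap. In the v10.1 gene table, a snoRNA gene (LOC121393504) lies within the span of qars1.S. Its part in the qars.S value was not tested.

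**Figure D1:**
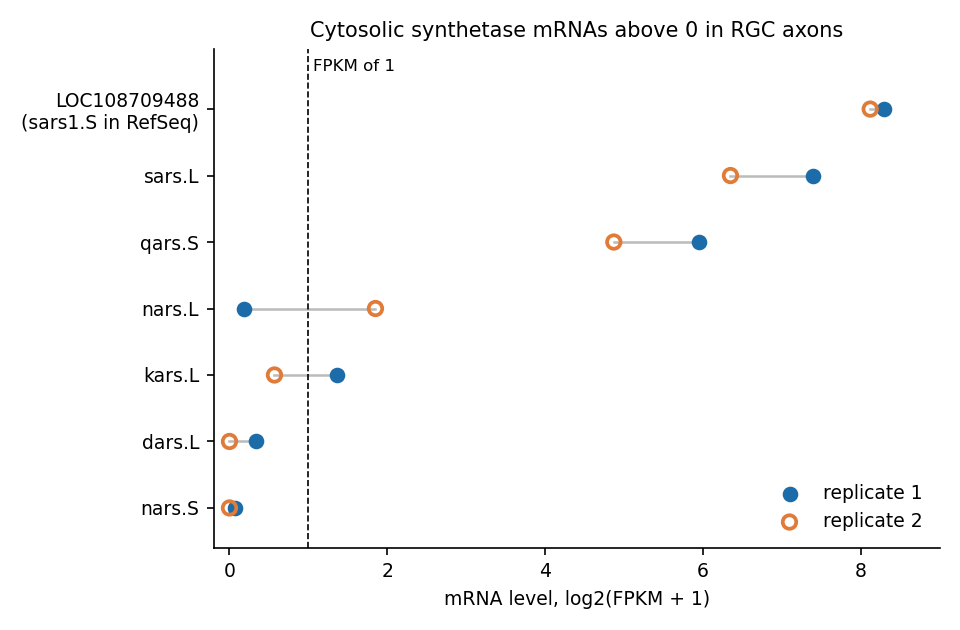
Levels of the 6 cytosolic synthetase names with a value above 0, and of LOC108709488 (sars1.S in RefSeq), as log2(FPKM + 1) in replicate 1 (filled points) and replicate 2 (open points), joined by a gray line for each name. LOC108709488, sars.L and qars.S lie over 1 FPKM (dashed line) in both libraries, nars.L and kars.L lie on different sides of it, and dars.L and nars.S lie under it.

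The 4 members above 0 that did not pass the limit in both libraries were low, and the libraries did not place them alike. Asparaginyl-tRNA synthetase, nars.L, had 0.132 and 2.60 FPKM in replicates 1 and 2. Lysyl-tRNA synthetase, kars.L, had 1.57 and 0.484 FPKM in replicates 1 and 2. Each was thus over 1 FPKM in a single library, nars.L in replicate 2 and kars.L in replicate 1. Aspartyl-tRNA synthetase of the cytosol, dars.L, had 0.259 FPKM in replicate 1 and nars.S had 0.0471 FPKM, and both were listed at 0 in replicate 2. With the relative depth of 3.71, the kars.L values stand in the ratio of 12 reads in replicate 1 to 1 in replicate 2, and those of nars.L in the ratio of 3 to 16, both within 0.1%. The files do not say which multiple of these numbers was counted. At the smallest multiple, kars.L would rest on 12 and 1 reads in replicates 1 and 2, and nars.L on 3 and 16. The lower value of each can thus rest on very few reads. By the average of both libraries, nars.L at 1.37 FPKM was the nearest cytosolic name without a pass in both libraries, and qars.S at 44.6 FPKM the nearest with one.

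Both cytosolic names over the limit were lower in replicate 2, with ratios of replicate 2 to replicate 1 of 0.480 for sars.L and 0.463 for qars.S. On the log2(FPKM + 1) scale the differences were -1.05 for sars.L and -1.08 for qars.S. Over the 2168 gene names that pass the limit, the absolute difference had a median of 0.98 on this scale, and 54.2% of them were lower in replicate 2. The difference between the libraries was thus about as large for these 2 mRNAs as for a typical axonal mRNA. LOC108709488 changed less, with a ratio of 0.882.

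**Figure D2:**
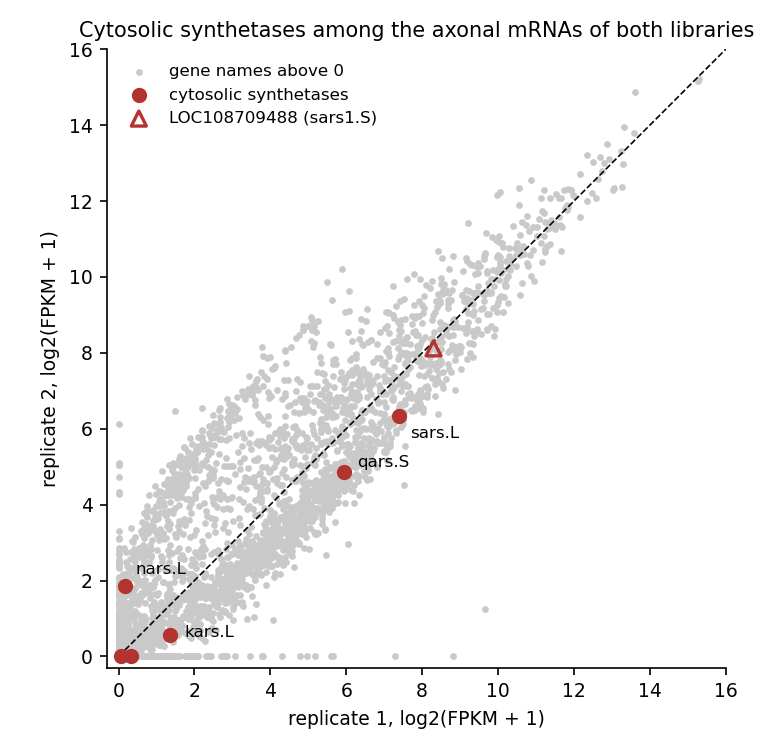
A set of 3335 gene names listed above 0 in either library, by log2(FPKM + 1) in replicate 1 (x axis) and replicate 2 (y axis). Circles mark cytosolic synthetases and the triangle LOC108709488; sars.L and qars.S lie below the dashed line of equal values, at ratios of replicate 2 to replicate 1 of 0.480 and 0.463.

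For most amino acids, no cytosolic synthetase mRNA found by symbol was listed above 0. Models listed without a symbol under names of other kinds, such as those starting with Xelaev or MGC, were not looked up. A homeolog under such a name would be missed, and 8 cytosolic symbols are listed under 1 name only. In both libraries, 82.4% of the cytosolic names were listed at 0, beside 93.2% of all gene names. Of the 21 cytosolic symbols, 16 were at 0 under every name in both libraries. These include eprs, the bifunctional glutamyl-prolyl enzyme, both subunits of phenylalanyl-tRNA synthetase (farsa and farsb), gars, and the enzymes for alanine, cysteine, histidine, isoleucine, leucine, methionine, arginine, threonine, valine, tryptophan and tyrosine, as well as sepsecs. The v10.1 table assigns the symbol of a cytosolic synthetase to 1 more numbered gene model besides LOC108709488, namely farsb.S, which was listed at 0 in both libraries. With these 2 models added, 3 of 36 names were detected (8.33%). Among mitochondrial enzymes, those for alanine (aars2), isoleucine (iars2), leucine (lars2) and tryptophan (wars2) were listed at 0 under every name in both libraries, and these 4 do not stand for the mitochondrial set as a whole.

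Of the 13 cytosolic symbols listed under 2 names, 9 were at 0 under both, where 93.2% of all gene names were at 0 in both libraries. A symbol counted as at 0 only where both of its names were, so this count is not like for like with that share of single names. In the other 4, a single homeolog carried most or all of the value. It was the S homeolog for qars and the L homeolog for dars. For kars it was the L homeolog, whose partner is listed as kars with no ending, on chromosome 4S. For nars both homeologs had a value above 0 in replicate 1, 0.132 FPKM for nars.L and 0.0471 FPKM for nars.S. In replicate 2, nars.L alone had one. Only qars passed 1 FPKM in both libraries, so for dars, kars and nars the split rests on low values. Reads that fit both homeologs can also be given to either. Seryl-tRNA synthetase is outside these counts, because its S homeolog is listed only as LOC108709488. There both homeologs were over 1 FPKM in both libraries. The larger part lay with LOC108709488, at 1.88 times the level of sars.L in replicate 1 and 3.44 times in replicate 2.

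The multisynthetase complex holds the enzymes for glutamate and proline (eprs), leucine, isoleucine, glutamine, methionine, lysine, arginine and aspartate. Of its 15 names, qars.S alone passed the limit in both libraries, kars.L passed it in replicate 1 only, dars.L had a value under it, and 12 (80.0%) were listed at 0 in both libraries, beside 93.2% of all gene names. Of the 19 names of cytosolic enzymes outside it, sars.L passed in both libraries, nars.L passed in replicate 2 only, nars.S had a value under the limit, and 16 (84.2%) were at 0 in both. With 1 name each, 6.67% of the complex and 5.26% of the other enzymes passed in both libraries, near the 4.39% of all gene names. The scaffold proteins of the complex, aimp1, aimp2 and eef1e1, have 5 names, all listed at 0 in both libraries, as were most gene names. Synthetases also fall into 2 structural classes with unrelated catalytic folds, with eprs in both and sepsecs in neither, so these were left out of the counts by class. Of 16 cytosolic names of class I, qars.S alone had a value above 0 (6.25%), and of 15 cytosolic names of class II, 5 had one (33.3%), beside 6.76% of all gene names. Of these 5, sars.L alone passed the limit in both libraries.

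Other genes that act on tRNA, deliver it or serve its delivery were taken from a list, which was chosen with earlier results of these data known. Of its 35 gene names, 7 were over 1 FPKM in both libraries (20%, beside 4.39% of all gene names). The largest level was that of eef1b2.L, a subunit of the exchange factor that recharges eEF1A with GTP, with 1730 and 1326 FPKM in replicates 1 and 2. This was 10.3 times the level of sars.L in replicate 1 and 16.5 times in replicate 2. Another subunit of that factor, eef1g, was detected under both homeologs, with 27.7 and 19.8 FPKM in replicates 1 and 2 for eef1g.L, and 24.2 and 10.1 FPKM for eef1g.S in the same order. The elongation factor eef1a1.L, which carries charged tRNA to the ribosome and whose row the files place on chromosome 5S despite its ending, had 60.3 and 146 FPKM in replicates 1 and 2. Its mRNA was thus below that of sars.L in replicate 1 and above it in replicate 2.

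The list also held gatc.L, a subunit of the mitochondrial amidotransferase that makes glutaminyl-tRNA from glutamate-loaded tRNA, with 899 and 992 FPKM in replicates 1 and 2. Its row shares its listed position with LOC108716015, which is the splicing factor gene srsf9.L in the v10.1 table and overlaps gatc.L there. LOC108716015 had 304 and 337 FPKM in replicates 1 and 2, a ratio of gatc.L to srsf9.L of 2.96 and 2.94, and reads from the overlap cannot be told apart, so the gatc.L value is uncertain. Without gatc.L, 6 of 34 names were detected (17.6%). The catalytic subunit of the amidotransferase, qrsl1, was listed at 0 in both libraries. The remaining detections were pus1.S, a pseudouridine synthase, with 3.55 and 54.3 FPKM in replicates 1 and 2, and eefsec.S, the factor that carries selenocysteinyl-tRNA, with 1.73 and 22.7 FPKM in replicates 1 and 2. Both were over 10 times higher in replicate 2, so the 2 libraries give no common level for them. The name ssb.S, the La protein that binds new tRNA, had 0.298 and 3.87 FPKM in replicates 1 and 2. It thus passed the limit in replicate 2 only. Under the limit in both libraries, secisbp2.L had 0.127 and 0.157 FPKM in replicates 1 and 2. The tRNA genes themselves are listed under 50 names, all at 0 in both libraries, as were 93.2% of all gene names. Whether the extraction and amplification keep RNAs as short as tRNA was not tested, so these values say nothing about tRNA in the axons.

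The same counts were made for other parts of the translation machinery, taken by symbol. Beside 5.88% of the cytosolic synthetase names, 5 of 16 names with an elongation factor symbol (31.3%) were over 1 FPKM in both libraries. So were 27 of 75 names with an initiation factor symbol (36.0%). Such symbols are also carried by genes that are not these factors. Examples are the scaffold gene eef1e1.L, listed at 0, and the kinase gene eif2ak4.L, over the limit in both libraries. These genes were not separated out, so both shares are shares by symbol only. Some elongation factors are also in the list of tRNA-handling genes. Of the names for cytosolic ribosomal proteins, 112 of 119 were detected (94.1%), and of those for mitochondrial ribosomal proteins, 4 of 100 (4.0%). By these counts the cytosolic synthetases lay near the mitochondrial ribosomal proteins and the share of all gene names. No test was made between the families, because genes are not replicates and the single condition offers no contrast over samples.

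**Figure D3:**
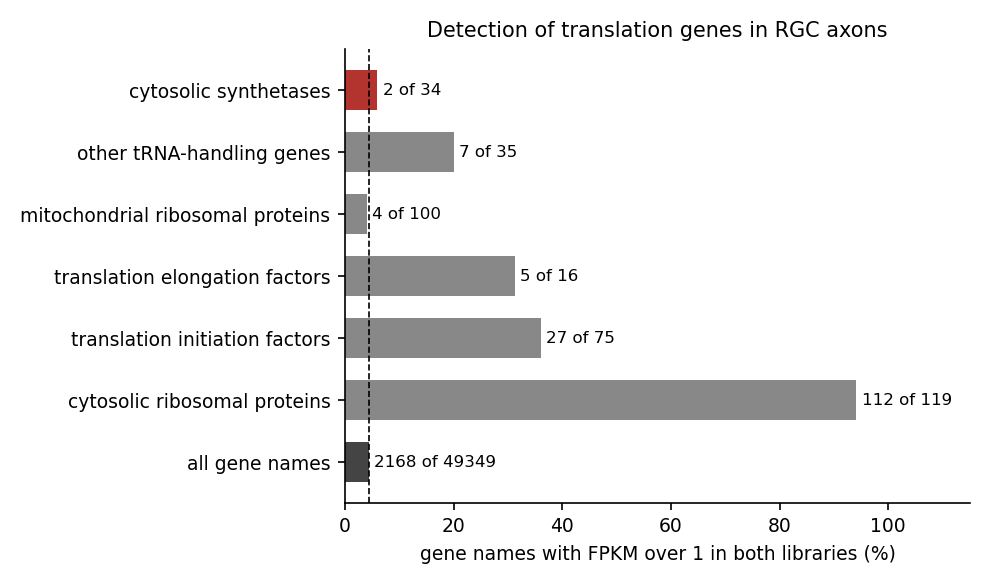
Share of gene names with FPKM over 1 in both libraries (x axis, in percent, from 0) for cytosolic synthetases, other gene groups of translation and all gene names, with the counts beside the bars. The dashed line is the share of all gene names, 4.39%; the bar of the cytosolic synthetases ends near it, at 5.88%.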

How the data were processed

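RNA-seq values of 2 libraries of X. laevis RGC axons were used. The authors aligned reads with HISAT2 2.1.0 (default settings, X. laevis v9.2 assembly), estimated FPKM values with Cufflinks 2.1.1 and deposited them for each library on its own. The replicates came from different batches of embryos. The gene annotation is not given in the sources used here. FPKM holds no counts, so no interval or detection floor was computed. PCR amplification adds an error that depth does not show.

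Where a gene name stood on several rows, their FPKM was added up. Members were found by symbol, and numbered gene models were named from a gene table of the RefSeq assembly Xenopus_laevis_v10.1, of which no coordinates are printed. Detection meant FPKM over 1 in both libraries. Log values are log2(FPKM + 1). Relative depth was read from the 621 names with values above 0 and under 5 FPKM in both libraries, 139 of which stand at 1 to 6 reads in replicate 1 against 1 in replicate 2. Tested on simulated data with 3000 names and a true value of 3.5, this step came within 5% in 20 of 20 runs. The simulated reads held no amplification error, so these runs do not cover it, and the relative depth remains an estimate.

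A gene of the family is not reported here: it is within the 49 names found by symbol and the totals over all gene names, and in no other count, sum or plot, so no comparison of cytosolic with mitochondrial enzymes is given. Every cytosolic member with a value above 0 is named with its value in both libraries, cytosolic members at 0 by symbol or amino acid, and other genes from fixed lists where above 0. The members and lists were chosen with earlier results of these data known, and the numbered gene models after their values were seen. With a single condition no test was possible. The alternatives covered the limit, the pseudocount, single libraries, homeologs, repeated or shared rows, names at 0, scaling to TPM and the compartment of gars and kars. Scripts ran in Python 3.11.15 (pandas 2.3.3, numpy 2.4.6, matplotlib 3.10.9).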

Additional observations from a re-analysis of the deposited data

How the results depend on the processing

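The count of 2 detected cytosolic synthetase names was also 2 with limits of 5 and 10 FPKM, with values scaled to TPM, with the highest row of each name, with homeologs averaged or summed to 21 genes, without rows that name several genes and without gars and kars. Taking the highest row, leaving out rows that name several genes and leaving out gars and kars could not change this count. Every cytosolic member stands on 1 row, and both detected names, sars.L and qars.S, stand on rows that name a single gene. The count was 4 with a limit of 0.1 FPKM. At that limit the count of the multisynthetase complex was 2 in place of 1. That of the other cytosolic enzymes was also 2 in place of 1. Leaving out replicate 1 or replicate 2 gave 3 names each, with a count of 1 to 2 for the complex and of 1 to 2 for the other cytosolic enzymes. With the numbered gene models added, a choice made after seeing the data, the other cytosolic enzymes had 2, and the cytosolic synthetase share of summed FPKM was 0.0707% in place of 0.0263%, the average of both libraries, because LOC108709488 then enters the sum. That share was 0.0154% to 0.0371% in single libraries. With pseudocounts of 0.1 and 10, the log2 difference between the libraries was -1.06 and -0.972 for sars.L. For qars.S it was -1.11 and -0.892 in the same order. A pseudocount cannot change the sign of such a difference, so only its size was open to change. The count of tRNA-handling genes was 7 at the main limit, 9 with a limit of 0.1 FPKM, and 5 with limits of 5 and 10 FPKM. It was also 5 without rows that name several genes, 8 without replicate 1 and 7 without replicate 2. No paired analysis was possible because the samples form a single group. Total depth is unknown, so how many of the names at 0 lie below detection cannot be given.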

Other observations

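Of the 6 cytosolic synthetase names with a value above 0, 4 belong to the enzymes for aspartate, asparagine and lysine (nars.L, nars.S, kars.L and dars.L), which form subclass IIb of the class II synthetases. The 34 cytosolic names hold 6 of this subclass, so 4 of 6 had a value above 0, beside 6.76% of all gene names, and 0 passed 1 FPKM in both libraries, beside 4.39% of all gene names. Outside it, 2 of 28 names had a value above 0, sars.L and qars.S, and both passed. The subclass was singled out after its values were seen, its values are near or under 1 FPKM apart from 2.60 FPKM for nars.L in replicate 2, and no test was made.

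Of the 2685 gene names above 0 in both libraries, 10.8% had a ratio of replicate 2 to replicate 1 between 0.4 and 0.5, where sars.L and qars.S lie. A further 10.1% had a ratio between 10 and 20, where nars.L (19.8), pus1.S (15.3), eefsec.S (13.1) and ssb.S (13.0) lie. These intervals were chosen after the values were seen. Another 42.8% had a ratio between 0.5 and 2, and LOC108709488, with a ratio of 0.882, is one of these. The intervals differ in width, so their shares are not like for like.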
